A study of Homo sapiens with 9 samples.

Results

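WFDC21P and 9 of its neighbours on chromosome band 17q23 were followed through RNA sequencing of cells that the labels give as BT549, in which WFDC21P had been targeted with siRNA. BT549 is a mesenchymal-like line from a human breast tumour without hormone receptors or HER2 amplification. The 10 genes (WFDC21P, VMP1, PTRH2, TUBD1, RPS6KB1, RNFT1, HEATR6, USP32, APPBP2 and DHX40) were listed by name, with earlier results of these data known. All 10 were among the 26636 genes listed in all 9 gene tables, and all 10 reached the mean of 1 FPKM over the 9 libraries that 13014 genes reached and that was required for testing. FPKM (fragments per kilobase of exon scaled to the library's mapped fragments) is the deposited unit.

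There were 3 libraries for siWFDC21P-1, 3 for siWFDC21P-2 and 3 for the control siRNA siNC, each from cells transfected with 5 µl of a 10 µM siRNA stock and harvested after 48 h, with 1 µg of RNA as input. Every group thus carried a transfected siRNA, and untransfected cells were not analysed here. The labels do not say how many separate transfections the libraries stand for, so a p-value here weighs a difference against the scatter of libraries, which may be technical. The question addressed here is whether the targeted transcript was lower, and where the genes around it lay beside it.

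The libraries did not form one homogeneous set. In the scheme of comparison used here each knockdown library is set against the siNC library of the same expression background. Background 1 holds siWFDC21P-1 replicates 1 and 2 with siNC replicate 1, background 2 holds siWFDC21P-1 replicate 3 with siNC replicate 2, and background 3 holds siWFDC21P-2 replicates 1 to 3 with siNC replicate 3. Across genes, log2(FPKM + 1) values of libraries correlated at 0.927 to 0.986 within a background and at 0.658 to 0.744 between backgrounds. Of 8 mesenchymal markers, background 3 had 8 at 1 FPKM or more (summed level 454 to 731 FPKM), background 1 had 4 to 5 (54.7 to 75.7 FPKM) and background 2 had 1 (6.90 to 13.0 FPKM). N-cadherin (CDH2) was at 0 FPKM in both libraries of background 2 and at no more than 0.00698 FPKM in background 1. Of 8 epithelial markers, background 2 had 7 at 1 FPKM or more (1033 to 1643 FPKM), background 1 had 2 to 3 (174 to 385 FPKM) and background 3 had 2 to 3 (7.0 to 10.2 FPKM), with EPCAM and GRHL2 at or near 0 in backgrounds 1 and 3. In background 1 the keratin genes KRT8 (93.4 to 232 FPKM) and KRT18 (80.4 to 151 FPKM) made up nearly all of that sum. The markers of the labelled line were therefore fully present in background 3 alone, and background 2 carried an epithelial set. Background and siRNA overlap in part: background 3 is the only one with siWFDC21P-2, so its cells, its gene tables and that siRNA cannot be told apart by level alone. The FPKM denominators were 28.1 to 29.7 M reads in backgrounds 1 and 2 and 16.3 to 17.4 M in background 3.

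WFDC21P is annotated as a transcribed unitary pseudogene, a gene that lost its coding capacity in the human lineage. Its RNA, also called lnc-DC, is known from human dendritic cells, where it was reported to bind STAT3 and to keep it phosphorylated. The band around it is known for gain of copies in breast cancers, and RPS6KB1, PPM1D and the microRNA gene MIR21, which overlaps the end of VMP1 and is not analysed here, are among the genes usually discussed for that gain. The other genes encode proteins of separate processes. VMP1 is a membrane protein of the endoplasmic reticulum needed for autophagosome formation, PTRH2 is a mitochondrial peptidyl-tRNA hydrolase also linked to anoikis, TUBD1 is delta-tubulin of the centriole, and RPS6KB1 is the S6 kinase that acts below mTORC1. RNFT1 is a RING finger membrane protein, USP32 a deubiquitinase, APPBP2 a substrate receptor for a cullin ubiquitin ligase, DHX40 a DEAH-box helicase and HEATR6 a HEAT-repeat protein of poorly known function.

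On chromosome 17 of hg38 (GRCh38), by GENCODE 29, WFDC21P lies at 60083566 to 60091885 on the minus strand and has 9 annotated transcripts of 185 to 630 bases. The shortest spliced form is shown for its broken reading frame and for its antisense partner, of which only the partner bears on how the gene was measured. It is WFDC21P-209, 185 bases from the exons at 60088197 to 60088286 and 60085109 to 60085203, with the 90 bases that lie opposite an exon of HEATR6-DT in capitals.
WFDC21P-209: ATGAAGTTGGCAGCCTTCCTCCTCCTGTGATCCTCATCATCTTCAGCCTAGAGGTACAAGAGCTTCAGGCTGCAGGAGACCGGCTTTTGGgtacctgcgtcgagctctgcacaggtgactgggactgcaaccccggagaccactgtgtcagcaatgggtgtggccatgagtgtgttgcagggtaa
The frame that opens with its first ATG meets the stop codon TGA at codon 10, after 9 codons. HEATR6-DT is a long noncoding RNA on the plus strand (60079309 to 60088695) that shares 271 of the 1099 exon bases of WFDC21P, or 24.7%, and 8 of the 9 transcripts have an exon opposite it. Whether reads were counted by strand is not stated, so reads in the shared bases cannot be assigned to one strand.

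Towards lower coordinates lie, in order, DHX40 (59565525 to 59608345, plus strand), PTRH2 (59674636 to 59707626, minus), VMP1 (59707192 to 59842255, plus) and TUBD1 (59859482 to 59892945, minus). Nearer to WFDC21P are RPS6KB1 (59893046 to 59950564, plus), RNFT1 (59952240 to 59964761, minus) and HEATR6 (60043194 to 60078931, minus). On the far side lie USP32 (60179094 to 60422470, minus) and APPBP2 (60443149 to 60526219, minus). Among these neighbours, PTRH2 and VMP1 start head to head on opposite strands, and so do TUBD1 and RPS6KB1. The stretches between their RefSeq start sites are shown because members of a pair could be compared directly for how they moved, and are given on the plus strand of GRCh38.p14, with matches to 1 motif in capitals. The PTRH2 and VMP1 stretch is chr17:59707431-59707653 (223 bases, ETS motif CCGGAAG or CTTCCGG), and the TUBD1 and RPS6KB1 stretch is chr17:59892944-59893120 (177 bases, NRF1 motif CATGCGC or GCGCATG).
PTRH2 and VMP1: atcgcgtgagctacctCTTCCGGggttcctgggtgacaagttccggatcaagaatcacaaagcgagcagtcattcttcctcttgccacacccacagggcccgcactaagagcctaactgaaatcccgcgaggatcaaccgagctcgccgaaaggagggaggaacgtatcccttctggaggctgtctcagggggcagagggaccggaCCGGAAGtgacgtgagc
TUBD1 and RPS6KB1: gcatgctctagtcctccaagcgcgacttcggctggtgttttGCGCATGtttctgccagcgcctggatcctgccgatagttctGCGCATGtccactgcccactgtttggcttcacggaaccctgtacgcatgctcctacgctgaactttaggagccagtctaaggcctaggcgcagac
Each stretch held 2 matches. Promoter windows of 300 bases were listed in RefSeq for 7 of the 10 genes, and 4 motifs were searched on both strands, of which no window of these genes held more than 1 kind. The ETS motif was in the windows of PTRH2 and VMP1 (2 matches each) and in 10.3% of all 35116 windows, with 1.74% holding at least 2. The NRF1 motif was in those of TUBD1 and RPS6KB1 (3 matches each) and in 4.43% of all windows, with 0.219% holding at least 3. Both windows of a head-to-head pair hold the stretch shown, so its 2 matches were counted for both genes and are not independent. The E-box CACGTG was in the windows of DHX40 and USP32 and in 7.26% of all windows, and the CCAAT box (CCAAT or ATTGG) was in 0 of the 7, against 34.6% of all windows. These matches describe letters in the windows and not binding.

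WFDC21P, the targeted transcript, was below its matched siNC library in 5 of 6 knockdown libraries. It had 0.0629, 0.767 and 0.227 FPKM in siWFDC21P-1 replicates 1 to 3 and 4.13, 3.32 and 2.12 FPKM in siWFDC21P-2 replicates 1 to 3, against 3.08, 0.129 and 6.87 FPKM in siNC replicates 1 to 3. These correspond to 2, 25 and 7 reads with siWFDC21P-1 and 79, 61 and 40 reads with siWFDC21P-2, against 99, 4 and 123 reads with siNC. The siNC libraries themselves ran from near the floor of detection to the highest of all 9, and every siWFDC21P-2 library lay above siNC replicate 2.

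Relative to the matched control, siWFDC21P-1 left 2.04% (95% exact binomial interval on the reads, counting error only, 0.244 to 7.58%) in replicate 1 and 24.9% (15.4 to 38.9%) in replicate 2. In replicate 3, from background 2, the level was 176% of control (44.8 to 821%), with 7 reads against 4, so no direction was detectable there at this depth. With siWFDC21P-2 the level was 60.2% (44.8 to 80.5%), 48.3% (34.9 to 66.2%) and 30.8% (21.0 to 44.4%) of control in replicates 1 to 3. In 5 of 6 libraries the interval lay below 100%, and the remaining level was smaller in both background 1 libraries of siWFDC21P-1 than in any siWFDC21P-2 library, although the intervals of replicate 2 and of siWFDC21P-2 replicates 2 and 3 overlapped. In bulk RNA, fewer cells with the transcript and less of it per cell cannot be told apart.

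The mean matched difference was -0.97 ± 0.70 on the log2(FPKM + 1) scale (SD over 6 knockdown libraries), a scale that understates changes of low genes. An exact two-sided permutation test within backgrounds gave p = 0.0833 over 24 arrangements, where the smallest p that the design allows is 0.0417. In limma with background in the model, the fold change was -0.85 ± 0.42 (log2, SE) for siWFDC21P-1 (Benjamini-Hochberg adjusted p = 0.422), -0.94 ± 0.52 for siWFDC21P-2 (adjusted p = 0.756) and -0.88 ± 0.31 for both siRNAs pooled (unadjusted p = 0.0195, adjusted p = 0.269). The siWFDC21P-1 minus siWFDC21P-2 difference of these fold changes was 0.09 ± 0.67 (adjusted p = 0.984), and its sign turned in other settings, with -0.41 at a pseudocount of 0.1, -0.21 in TPM, -0.64 without background 2, -1.28 in limma-voom on the recovered reads and -1.64 with no background term. At a pseudocount of 0.1 the siWFDC21P-1 value was -1.54, the pooled value -1.38 and the mean matched difference -1.51 (exact permutation p = 0.167), and limma-voom gave -2.42 for siWFDC21P-1 and -1.62 pooled. The siWFDC21P-1 value rested on siNC replicate 1, without which it was 0.12 and the pooled value -0.52. With no background term the siWFDC21P-1 value was -1.33 and the pooled value -0.51. Without background 2 the siWFDC21P-1 value was -1.57, the pooled value -1.24 and the mean matched difference -1.19. HEATR6-DT, the antisense partner, had 3 to 11 reads in the knockdown libraries and 2 to 16 in siNC libraries, below the WFDC21P count in every library but siWFDC21P-1 replicate 1.

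**Figure D1:**
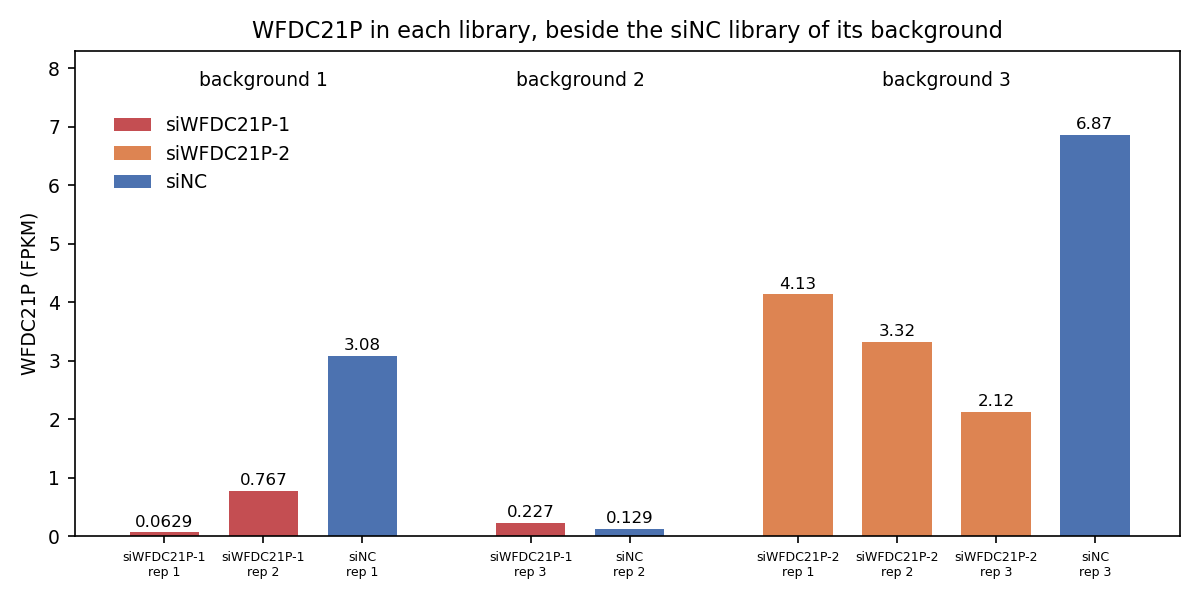
WFDC21P in each library, in FPKM on a linear axis from 0, with libraries grouped by background and knockdown libraries left of their siNC library. Each bar is 1 library, with its FPKM printed above it and no error bar. In backgrounds 1 and 3 every knockdown bar lies below its siNC bar, while both bars of background 2 (0.227 and 0.129 FPKM) are close to 0.

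No member passed the adjusted threshold of 0.05 in limma, in any of the 3 comparisons, while the same fits called 0.0231% of all tested genes with siWFDC21P-1 (3 genes, RPL26L1, GANAB and CDKN1A), 0% with siWFDC21P-2 and 0.00768% with both siRNAs pooled (GANAB). At an unadjusted p under 0.05, 1 member (TUBD1) was reached with siWFDC21P-1, against 13.8% of all genes, and 1 (TUBD1) with siWFDC21P-2, against 5.24%. For the siWFDC21P-1 minus siWFDC21P-2 difference 0 members were reached, against 5.4% of all genes, and 0% passed after adjustment. With both siRNAs pooled 3 members were reached (TUBD1, WFDC21P and HEATR6), against 14.4% of all genes, so the members' share was not read as a result. On the recovered reads limma-voom also called 0 members, with 3 at an unadjusted p under 0.05 for the pooled siRNAs.

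TUBD1, the delta-tubulin gene, was the one member above its matched control in all 6 knockdown libraries, a pattern that 10.8% of all tested genes had. It had 5.24, 4.44 and 5.00 FPKM with siWFDC21P-1 and 1.71, 2.76 and 2.06 FPKM with siWFDC21P-2, against 2.89, 3.65 and 1.09 FPKM in siNC replicates 1 to 3. The level was 137 to 254% of the matched control, and all 6 counting intervals excluded 100%. All 6 also did for HEATR6, and for VMP1 and USP32, whose libraries lay on both sides of control. The share of all tested genes with such intervals was not computed. Across backgrounds the groups overlapped, since siNC replicates 1 and 2 lay above all 3 siWFDC21P-2 libraries. The pooled fold change was 0.53 ± 0.15 (unadjusted p = 0.00572, adjusted p = 0.208), with 0.49 ± 0.19 for siWFDC21P-1 and 0.59 ± 0.24 for siWFDC21P-2. In background 3 the siNC count was 59 reads, against 99 to 154 reads in the knockdown libraries.

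HEATR6, the nearest annotated member at 4634 bases and on the same strand as WFDC21P, was the one member below control in all 6 libraries, a pattern that 7.92% of all tested genes had. It had 5.27, 8.18 and 3.95 FPKM with siWFDC21P-1 and 5.83, 4.44 and 5.12 FPKM with siWFDC21P-2, against 9.66, 4.56 and 7.05 FPKM with siNC. The level was 54.6 to 86.6% of control, and all 6 counting intervals excluded 100%, as those of TUBD1, VMP1 and USP32 also did. Again the groups overlapped across backgrounds, because siNC replicate 2 lay below 4 of the knockdown libraries. The pooled fold change was -0.37 ± 0.16 (unadjusted p = 0.0486, adjusted p = 0.345).

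VMP1, DHX40 and APPBP2 were below control in 5 of 6 libraries each. The share of all tested genes on one side in 5 of 6 was not computed, and the 6 ratios draw on shared controls. Such counts, also those of WFDC21P and RPS6KB1, are therefore descriptions only. VMP1, the endoplasmic reticulum protein, had 17.9, 19.4 and 22.5 FPKM with siWFDC21P-1 and 33.7, 23.04 and 22.04 FPKM with siWFDC21P-2, against 25.8, 27.1 and 27.7 FPKM with siNC. Only siWFDC21P-2 replicate 1 was above its control, at 122%, and the other 5 libraries lay at 69.1 to 83.1%. The pooled fold change was -0.26 ± 0.16 (adjusted p = 0.484). The helicase gene DHX40 had 13.3, 15.2 and 13.4 FPKM with siWFDC21P-1 and 12.9, 10.1 and 9.91 FPKM with siWFDC21P-2, against 16.7, 14.8 and 12.8 FPKM with siNC. Only siWFDC21P-2 replicate 1, at 101% of control, was not below it, and the lowest library had 77.5% (-0.19 ± 0.13, adjusted p = 0.512). APPBP2, the ubiquitin ligase receptor, had 4.28, 5.30 and 5.27 FPKM with siWFDC21P-1 and 4.27, 5.86 and 4.82 FPKM with siWFDC21P-2, against 5.60, 5.53 and 4.82 FPKM with siNC. It varied least of the 10 genes between backgrounds 1 and 3, and had 76.4 to 122% of control (-0.07 ± 0.14, adjusted p = 0.836). Its siWFDC21P-2 replicate 3, counted as below, was at 99.98% of control.

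The other 4 genes lay on both sides of their controls. RPS6KB1, the S6 kinase, had 9.11, 9.38 and 9.37 FPKM with siWFDC21P-1 and 5.40, 5.69 and 4.996 FPKM with siWFDC21P-2, against 8.37, 11.1 and 4.88 FPKM with siNC. It was higher in 5 of 6 libraries at 84.3 to 116% of control (0.03 ± 0.12, adjusted p = 0.929).

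The deubiquitinase gene USP32 had 9.41, 10.8 and 9.85 FPKM with siWFDC21P-1 and 5.40, 8.11 and 8.08 FPKM with siWFDC21P-2, against 10.05, 6.55 and 6.18 FPKM with siNC. It was higher in 4 of 6 libraries at 87.3 to 150% of control (0.21 ± 0.17, adjusted p = 0.582), and the first replicate of each siRNA was the one below. RNFT1, the RING finger gene, had 6.00, 6.46 and 4.22 FPKM with siWFDC21P-1 and 1.91, 3.67 and 2.48 FPKM with siWFDC21P-2, against 7.54, 3.09 and 2.29 FPKM with siNC. It was higher in 3 of 6 libraries at 79.5 to 160% of control (0.06 ± 0.18, adjusted p = 0.896), with its highest level in siNC replicate 1. PTRH2, the peptidyl-tRNA hydrolase, had 12.8, 12.3 and 6.53 FPKM with siWFDC21P-1 and 3.48, 3.19 and 3.47 FPKM with siWFDC21P-2, against 11.04, 5.70 and 3.61 FPKM with siNC. It was higher with siWFDC21P-1 in 3 of 3 libraries and lower with siWFDC21P-2 in 3 of 3, all within 88.3 to 116% of control (pooled 0.07 ± 0.12, adjusted p = 0.793). A split of this kind between the siRNAs was found in 8.07% of all tested genes. None of the 4 passed the test, which does not show that they were the same as in control.

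**Figure D2:**
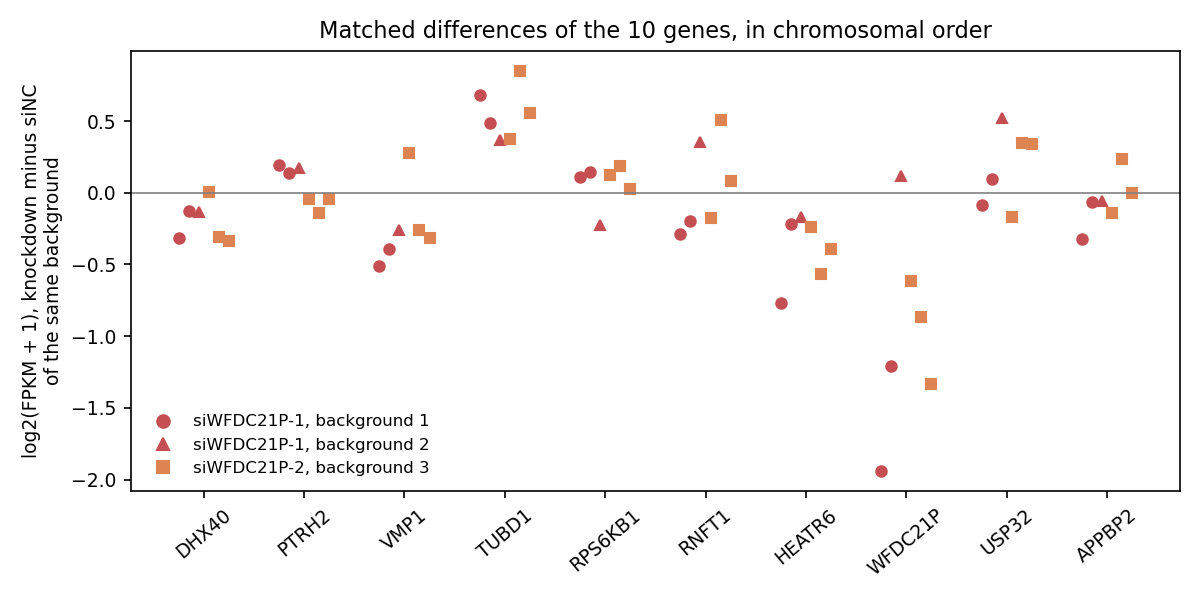
Difference of each knockdown library from the siNC library of its background, on the log2(FPKM + 1) scale, for the 10 genes in chromosomal order; points are single libraries, with colour for the siRNA and marker shape for the background. All 6 TUBD1 points lie above 0, all 6 HEATR6 points below 0 and 5 of 6 WFDC21P points below 0.

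Distance from WFDC21P did not order the values. Measured as the gap between gene ends, the pooled fold change was -0.37 for HEATR6 at 4634 bases, 0.21 for USP32 at 87.2 kb, 0.06 for RNFT1 at 119 kb, 0.03 for RPS6KB1 at 133 kb, 0.53 for TUBD1 at 191 kb and -0.26 for VMP1 at 241 kb. Beyond these lay APPBP2 at 351 kb (-0.07), PTRH2 at 376 kb (0.07) and DHX40 at 475 kb (-0.19). Genes on either side of WFDC21P had values of both signs.

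**Figure D3:**
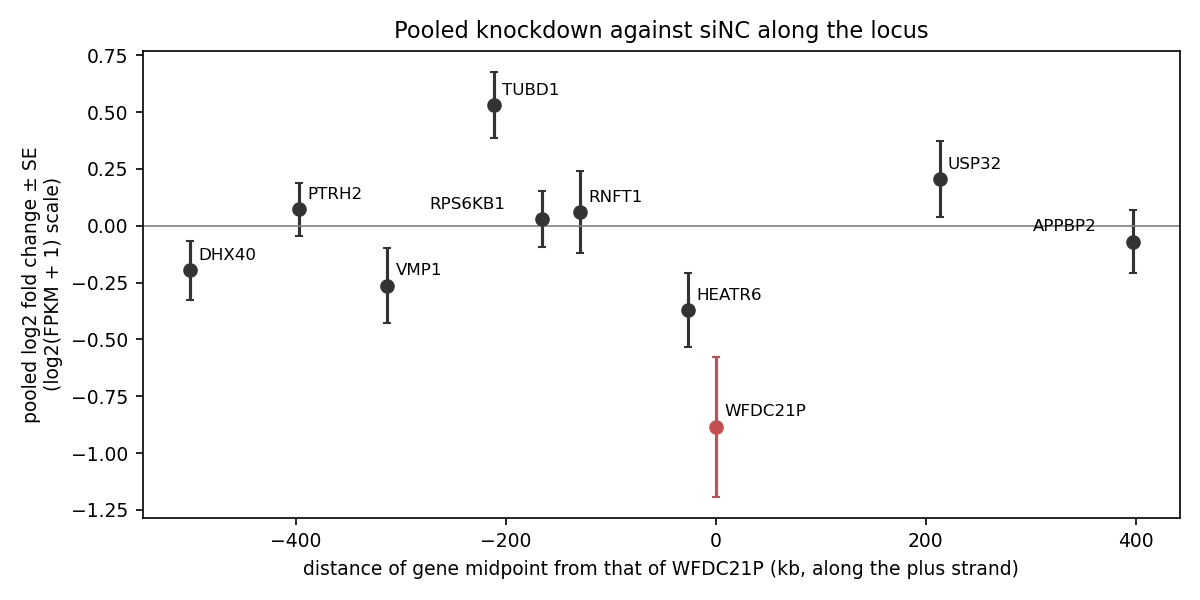
Pooled fold change of each gene (log2, points with SE bars) against the distance between its midpoint and that of WFDC21P in kb, negative towards lower coordinates. WFDC21P itself is at -0.88, the nearest gene, HEATR6, at -0.37, and the highest value is 0.53 for TUBD1.

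The head-to-head pairs differed in how their members lay. TUBD1 was above RPS6KB1 in its matched ratio in 6 of 6 libraries, although both were on the same side of control in 5 of 6. VMP1 and PTRH2 were on the same side in 2 of 6. The annotated exons of PTRH2 and VMP1 share 162 bases on opposite strands, those of PTRH2 and CLTC share 244, and RNFT1 shares 712 bases (20.9% of its exons) with a read-through transcript on its own strand, so their counts can mix. USP32 and DHX40 have near-identical pseudogene or paralog copies, and how reads shared with these were counted is not stated.

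Levels of several of these genes also differed between backgrounds. This is a description with no test, because backgrounds are not groups of the study, and its ranges take knockdown and siNC libraries together. PTRH2 had 11.04 to 12.8 FPKM in background 1, 5.70 to 6.53 in background 2 and 3.19 to 3.61 in background 3, with no overlap between any of the 3. For WFDC21P, the target of both siRNAs, the siNC libraries alone had 3.08 FPKM in background 1, 0.129 in background 2 and 6.87 in background 3. RPS6KB1 had 4.88 to 5.69 FPKM in background 3, below 8.37 to 11.1 FPKM in the others. RNFT1 was higher in background 1 (6.00 to 7.54 FPKM) than in backgrounds 2 (3.09 to 4.22 FPKM) and 3 (1.91 to 3.67 FPKM), which overlapped. VMP1 and APPBP2 overlapped between all backgrounds. The share of all tested genes without overlap was not computed, and libraries of different backgrounds correlated at only 0.658 to 0.744. These separations are therefore not read as particular to these genes.

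More than 1 log2 unit separated 3 of 10 genes between backgrounds 1 and 3 (PTRH2 1.55, RNFT1 1.11 and WFDC21P -1.29), against 29.1% of all tested genes. The WFDC21P value includes libraries in which it was targeted, and between the siNC libraries of these backgrounds it was -0.95, against 1.39 for PTRH2 and 1.38 for RNFT1. Between backgrounds 2 and 3 it was 1 of 10 (WFDC21P, -2.04, and -2.80 between siNC libraries), against 30.5%, and between 2 and 1 it was 0 of 10, against 23.8%. Between single siNC libraries, TUBD1 (1.16) and RPS6KB1 (1.04) were also over 1 unit apart for backgrounds 2 and 3, as were WFDC21P (-1.85) and RNFT1 (-1.06) for backgrounds 2 and 1. On the per-length scale of FPKM, VMP1 was the highest of the 10 genes in every library (17.9 to 33.7 FPKM), and DHX40 (9.91 to 16.7 FPKM) ranged above HEATR6 (3.95 to 9.66 FPKM).

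**Figure D4:**
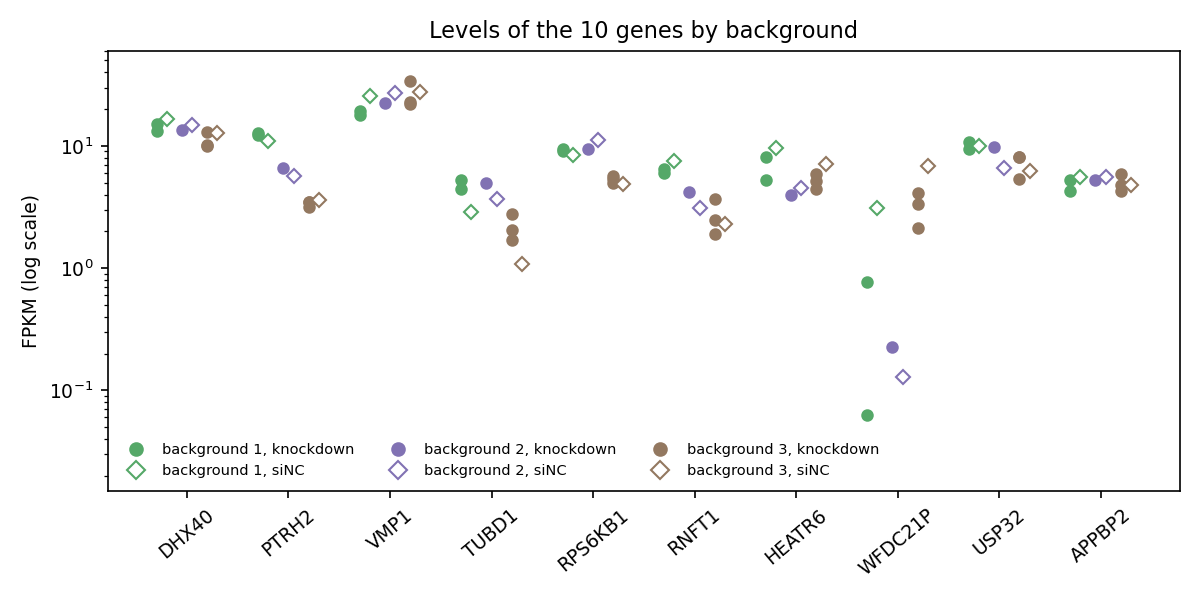
FPKM of the 10 genes on a log axis, with libraries coloured by background; filled circles are knockdown libraries and open diamonds siNC libraries. PTRH2 forms 3 separate levels, while VMP1 and APPBP2 overlap between backgrounds.

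Of 32 annotated genes within 300 kb of WFDC21P, 19 were listed in all 9 tables and 11 had a mean of at least 1 FPKM, 4 of them outside the 10 genes. In the pooled limma fit 0 of these 4 passed the threshold (the smallest unadjusted p was 0.199). On the recovered reads limma-voom called 0 genes in the pooled comparison. CLTC, the clathrin heavy chain gene next to PTRH2, had a pooled fold change of 0.06 ± 0.16 (adjusted p = 0.887). PPM1D, a p53-pathway phosphatase gene of the same band, had 0.10 ± 0.19 (adjusted p = 0.820).

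Lists around the same pathways were described by counts, beside 13014 tested genes with a median pooled fold change of 0.03, of which 1408 were higher and 1031 lower in all 6 libraries. In limma 0 of 26 tested genes of a list of other 17q23 genes passed, with 2 higher and 2 lower at an unadjusted p under 0.05, and the median was 0.10. The smallest p-values there were those of TLK2, a chromatin kinase (0.54 ± 0.14, adjusted p = 0.196), GDPD1, a lysophospholipase D (-0.77 ± 0.23, adjusted p = 0.231), and MRC2, a collagen receptor (0.38 ± 0.15, adjusted p = 0.300). Of 28 genes of autophagosome formation, the process in which VMP1 acts, 0 passed (1 higher and 2 lower unadjusted, median -0.08). WIPI2, a phosphoinositide-binding factor, had 0.53 ± 0.13 (adjusted p = 0.186) and was higher in 6 of 6 libraries. The cargo receptor SQSTM1 (-0.72 ± 0.29, adjusted p = 0.319) and MAP1LC3B (-1.26 ± 0.55, adjusted p = 0.345), which marks the autophagosome membrane, were lower in 6 of 6. The siWFDC21P-2 replicates were uneven. SQSTM1 had 184, 77.1 and 81.5 FPKM in replicates 1 to 3, against 226 FPKM in siNC replicate 3. MAP1LC3B had 57.2, 11.4 and 12.1 FPKM, against 70.0 FPKM. In siWFDC21P-1 replicate 3 MAP1LC3B had 9.02 FPKM, against 10.8 FPKM in siNC replicate 2.

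Of 22 genes of the mTORC1 and S6 kinase pathway 0 passed (3 higher and 0 lower unadjusted, median -0.10), and 5 were higher and 1 lower in all 6 libraries. IRS1, an insulin receptor substrate that the S6 kinase phosphorylates, had 0.58 ± 0.18 (adjusted p = 0.242), AKT1S1, the mTORC1 inhibitor PRAS40, had 0.59 ± 0.20 (adjusted p = 0.262) and MTOR had 0.32 ± 0.14 (adjusted p = 0.348). Of 5 genes linked to WFDC21P in earlier reports, not all of them as binding partners, 0 passed. STAT3 had 0.39 ± 0.14 (adjusted p = 0.283) and was higher in 6 of 6. In siWFDC21P-1 replicate 1 it was nearly level with siNC replicate 1, at 27.74 against 27.72 FPKM. NR4A1 had -0.37 ± 0.26 (adjusted p = 0.539) and PTPN6 had -0.21 ± 0.15 (adjusted p = 0.541). PTPN6 had 6.17 FPKM in siWFDC21P-1 replicate 3 and 11.1 FPKM in siNC replicate 2. Every other library had 0 to 0.130 FPKM of it, so its value rests on background 2. Of the 18 genes of the WFDC family, 5 were listed and SLPI alone was tested (-0.22 ± 0.33, adjusted p = 0.785). SLPI was higher in 4 of 6 libraries. It had 0.309 to 0.802 FPKM in background 3 and 34.0 to 356 FPKM in the others, so it reached the required mean through backgrounds 1 and 2.

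By the root mean square difference of 6 matched log2 ratios among 12423 genes, those most like WFDC21P were IFIT2 (0.303), an interferon-induced gene, MYO6 (0.336), STX1A (0.346), ADAMTSL4 (0.366) and KRT87P (0.375). The measure is a description over 6 libraries that share 3 controls. Of the members HEATR6 was nearest, at rank 385 (0.771), and TUBD1 was farthest, at rank 11483 (1.70).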

How the data were processed

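The deposited files hold FPKM per Ensembl gene, which the authors calculated. HISAT2 2.1.0, Bowtie2 2.2.3, HTSeq 0.6.0 and build hg38 are named in the submitters' processing notes, with no roles. The 9 tables came in 2 naming styles of 34377 and 29104 genes. Coordinates and exon lengths came from GENCODE 29, which matched 26459 of 26636 common genes. Symbols came from a reference of current gene names, with the GENCODE 29 name where that had none. FPKM times exon length and library denominator gave whole reads, to within 0.02 reads, for 24684 genes (92.7%), including all 10 members. Intervals (95%) are exact on these reads and cover counting error only.

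The 13014 genes that averaged 1 FPKM or more were put on the log2(FPKM + 1) scale and fitted with limma 3.58.1 under R 4.3.3, with trended variances and background in the model, at a Benjamini-Hochberg threshold of 0.05 over all genes. An exact permutation within backgrounds was run for WFDC21P alone (Python 3.11.15, SciPy 1.17.1). The named genes were the 10 members, CLTC, PPM1D, genes overlapping WFDC21P, up to 3 genes per list with the smallest pooled p, and the 5 genes most like WFDC21P. Members, lists, backgrounds and rules were chosen with earlier results of these data known. The alternatives covered the model terms, pseudocount, filter, scaling, replicate block and each library left out. limma-voom on recovered reads and the fits without background 2 were chosen after seeing the data.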

Additional observations from a re-analysis of the deposited data

Results flagged for a closer look

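PTRH2 was marked because its matched ratios lay on opposite sides for the 2 siRNAs. It was above control in 3 of 3 siWFDC21P-1 libraries and below control in 3 of 3 siWFDC21P-2 libraries. The siWFDC21P-1 minus siWFDC21P-2 difference was 0.24 ± 0.24 (log2, SE; limma unadjusted p = 0.339, adjusted p = 0.855), and 8.07% of all tested genes had such a split. All 3 siWFDC21P-1 counting intervals excluded 100% of control, and all 3 siWFDC21P-2 intervals included it. siWFDC21P-2 was present in background 3 alone, so siRNA and background cannot be told apart.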

How the results depend on the processing

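No member passed the threshold in any of 59 limma fits over 20 settings. The number of genes called with siWFDC21P-1 (3) was 0 with naming style in place of background, with no background term, with a filter at 0.1 FPKM, with no filter and with median-centred values, 1 with limma-voom and 0 to 153 with a library left out. With siWFDC21P-2 (0) it was 3 with a filter at 0.1 FPKM, 17 with no filter and 0 to 902 with a library left out. With both siRNAs pooled (1) it was 0 in the same 5 settings as for siWFDC21P-1, with limma-voom and without background 2, 2 with a pseudocount of 0.1 and 0 to 204 with a library left out. The highest counts, 153, 902 and 204, all came without siWFDC21P-2 replicate 1, and the cause was not tested.

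With no background term the pooled fold change was -0.044 for PTRH2, -0.11 for RPS6KB1 and -0.0059 for RNFT1, and the siWFDC21P-2 value of WFDC21P was 0.31. Without background 2 RNFT1 was at -0.042. With a library left out, RPS6KB1 ran from -0.023 to 0.12, RNFT1 from -0.042 to 0.22 and WFDC21P with siWFDC21P-1 from -1.57 to 0.12, the last without siNC replicate 1. Pooled values of PTRH2 ran from 0.023 (without siNC replicate 1) to 0.17 (without siNC replicate 3), of USP32 from 0.094 (without siWFDC21P-1 replicate 3 or siNC replicate 2) to 0.31 (without siNC replicate 1), of VMP1 from -0.37 (without siNC replicate 3) to -0.16 (without siNC replicate 1), of APPBP2 from -0.14 (without siNC replicate 3) to -0.0041 (without siNC replicate 1) and of WFDC21P from -1.24 (without siWFDC21P-1 replicate 3 or siNC replicate 2) to -0.52 (without siNC replicate 1). The matched difference of WFDC21P ran from -1.19 to -0.67 (exact permutation p from 0.0833 to 0.333). With fewer arrangements (6 to 18) the smallest p allowed ran from 0.0556 to 0.167, and the value of 0.0833 was itself the smallest allowed. Over the same left-out libraries TUBD1 ran from 0.48 to 0.59 and HEATR6 from -0.44 to -0.28. Pooled values of TUBD1, HEATR6, DHX40, VMP1, USP32, APPBP2 and WFDC21P kept their direction in all 19 alternatives. These are not 19 separate checks, since a changed filter leaves the fold change of a gene as it was. The fits without background 2, without siWFDC21P-1 replicate 3 and without siNC replicate 2 also gave the same fold changes. The pooled TUBD1 value was 0.72 at a pseudocount of 0.1 and 0.36 with no background term. Its siWFDC21P-2 value was -0.09 with no background term. Without siNC replicate 3 siWFDC21P-2 has no control of its background, so that fit was not run. The pooled values given without siNC replicate 3 therefore rest on siWFDC21P-1 alone and equal its main values. The labels do not say that replicate numbers pair libraries. Deviations of same-numbered libraries correlated at -0.68 to 0.67, and both extremes are siWFDC21P-1 with siNC, of the same background at the high end and of different backgrounds at the low end. With the replicate block, 0 genes were called with siWFDC21P-1, 0 with siWFDC21P-2 and 0 with both pooled. Depth limits WFDC21P most, with 4 and 7 reads in background 2.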

Other observations

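CA4, the carbonic anhydrase 4 gene within 300 kb of WFDC21P, was singled out after its values were seen. It had 0.735, 16.3 and 11.1 FPKM (31, 663 and 461 reads) in siWFDC21P-2 replicates 1 to 3, against 0.633 FPKM (25 reads) in siNC replicate 3. It was at 0 reads in all 3 siWFDC21P-1 libraries, against 1 and 4 reads in siNC replicates 1 and 2. The pooled fold change was 0.80 ± 0.73 (limma adjusted p = 0.625), and siWFDC21P-2 alone gave 2.13 ± 1.08 (adjusted p = 0.756).

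The neighbouring gene ENSG00000280852, also chosen after its values were seen, had 5.15 to 7.07 FPKM with siWFDC21P-2, against 5.34 FPKM in siNC replicate 3. In the other backgrounds it had 0.245 to 0.435 FPKM with siWFDC21P-1, against 0.412 and 0.700 FPKM with siNC. The pooled fold change was -0.04 ± 0.16 (adjusted p = 0.933).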
